A study of Capra hircus with 3 samples.

Results

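The 4 annotated long noncoding RNA (lncRNA) genes of the goat mammary gland, LOC102178647, LOC102189880, LOC102177005 and LOC102180828, were examined over lactation. They were chosen because the study's Rfam classification placed their transcripts in families of small nucleolar RNA (snoRNA) or their host RNAs, namely SNORD79, ZNFX1-AS1, SCARNA15 and SNORA62. They are 4 of the 441 lncRNA genes, and of the 13863 annotated genes, to which the deposited loci could be matched by NCBI gene ID. Mammary tissue was taken by surgery from 5 healthy Laoshan dairy goats aged 4 years, in early lactation (day 10 after parturition), peak lactation (day 90) and late lactation (day 210). Equal amounts of RNA from the 5 goats were pooled at each stage into 1 stranded library, giving the E, P and L libraries. A pool hides the differences between goats, and with 1 library per stage there is no replicate spread, no test and no p-value for any difference below. The values are FPKM, fragment numbers scaled by transcript length and by the total of mapped reads, so levels are per length and can be set beside each other between genes. The E, P and L libraries are named by their labels. Which of the columns labelled P and L holds which stage is uncertain, because the study's own transcript results for known lncRNAs run mostly in the other direction between these stages.

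Small nucleolar RNAs guide the chemical modification of ribosomal RNA. Box C/D RNAs such as SNORD79 guide methylation, box H/ACA RNAs such as SNORA62 guide pseudouridylation, and small Cajal body RNAs such as SCARNA15 do the same for spliceosomal RNAs. In mammals most of them are cut out of introns, either of genes for ribosomal and translation proteins or of noncoding host genes. The exons of noncoding hosts are left over after splicing, and several hosts start with the same terminal oligopyrimidine tract (TOP) as ribosomal protein mRNAs and are broken down by nonsense-mediated decay once ribosomes read them. In human, SNORD79 lies in an intron of GAS5, a host named for its accumulation in growth-arrested cells. ZNFX1-AS1, also called ZFAS1, hosts box C/D RNAs of the SNORD12 group and was first described in the mouse mammary gland. SCARNA15 lies in the host SNHG21, and SNORA62 lies in an intron of RPSA, a ribosomal protein gene. The lactating gland makes large amounts of protein, so its ribosome supply is a natural companion of these genes.

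The names of the families fitted the 4 genes to different degrees. LOC102178647 lies beside ZBTB37, a neighbour of GAS5 in human, and LOC102189880 lies beside ZNFX1. The ZNFX1-AS1 families describe conserved stretches of the host RNA itself and not a snoRNA. The SNORA62 match of LOC102180828 was recorded on the minus strand of its transcripts, so the lncRNA carries the complement of that snoRNA and is not shown to be its host. The study set aside transcripts recognised as snoRNAs and those shorter than a length limit, and the deposited FPKM of these loci measure the long transcripts, so nothing here is a level of a mature snoRNA. No sequence of these genes was used here.

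The 4 genes spanned a wide range of abundance. In the E library LOC102178647 ranked 15 of the 441 lncRNA genes, LOC102189880 ranked 40, LOC102177005 ranked 54 and LOC102180828 ranked 314. In the L library their ranks were 32, 55, 47 and 367. LOC102178647 thus stood above 96.6% of lncRNA genes and above 94.9% of protein-coding genes in the E library, whereas LOC102180828 stood above 28.8% and 11.6%. No member was listed at 0 in any library.

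**Figure D1:**
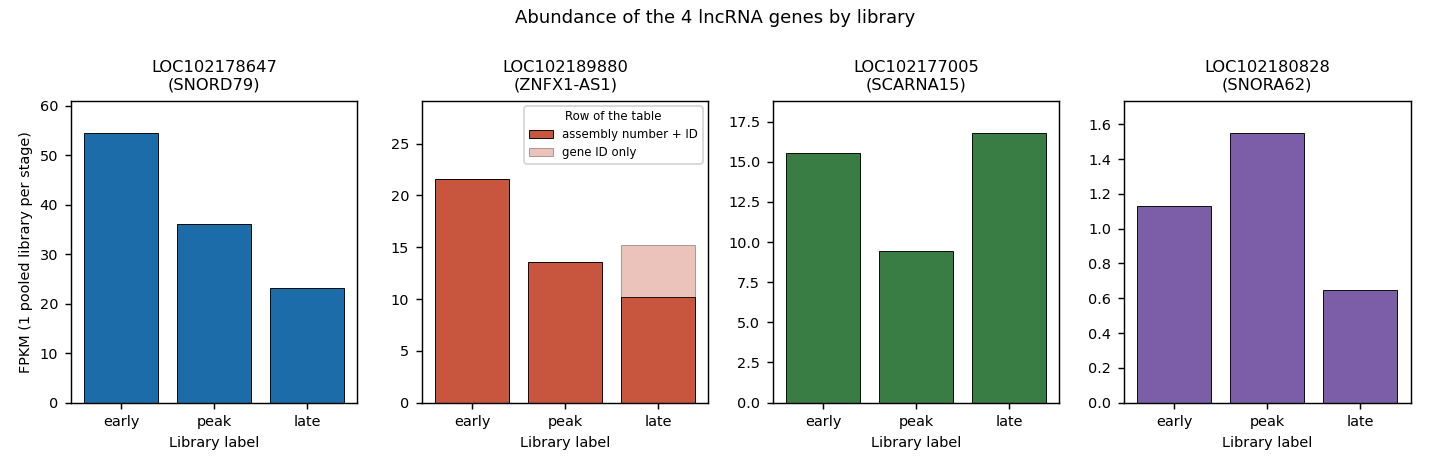
FPKM (vertical axes, from 0, a separate scale per gene) of each gene in the library of each stage (horizontal axes). Each bar is 1 pooled library, so there are no error bars, and for LOC102189880 the bar is split into the 2 rows that the deposited values hold for it. LOC102178647 stepped down from 54.5 to 36.2 to 23.2 FPKM, LOC102177005 was lowest at peak with 9.46 FPKM, and LOC102180828 was highest there with 1.55 FPKM.

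LOC102178647, the gene with the SNORD79 match, is listed on scaffold NW_005100848.1 from 1011338 to 1015146, a span of 3809 nt with introns. It had 54.5 FPKM in the E library, 36.2 FPKM in the P library and 23.2 FPKM in the L library. It was the most abundant of the 4 genes in every library and was lower at each later stage by label. LOC102189880 shared that order in the larger of its rows, but not in their sum as deposited. The sum took that order when FPKM were rescaled without the 20 highest loci (20.4, 15.1 and 14.6). It also did so when ratios were centred on ribosomal protein genes (-0.09 for P over E, -0.15 for L over E). The log2 ratio of LOC102178647 was -0.59 for P over E, -1.23 for L over E and -0.64 for L over P. The L library thus held 0.426 of the E level, the strongest difference from early lactation among the 4 genes. Among genes that reached 1 FPKM in both libraries, 1.75% of 286 lncRNA genes had a lower ratio of L over E, as did 1.07% of 11234 protein-coding genes. The order E > P > L was found in 27 of the 249 lncRNA genes that reached 1 FPKM throughout, or 10.8%.

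LOC102189880, the gene with the ZNFX1-AS1 match, is listed on scaffold NW_005100804.1 from 14967128 to 14970124, a span of 2997 nt. Summed by gene ID it had 21.6 FPKM in the E library, 13.5 FPKM in the P library and 15.2 FPKM in the L library. The sum hides an uneven split, since the gene has 2 rows at the same position. The row with an assembly number held 21.6, 13.5 and 10.2 FPKM in the E, P and L libraries. The row with the gene ID alone held 0.00555 FPKM in the E library, 0.00141 FPKM in the P library and 4.999 FPKM in the L library. That row made up 32.9% of the gene's sum in the L library and 0.0257% in the E library. The summed log2 ratio was -0.67 for P over E, -0.51 for L over E and 0.17 for L over P. With the larger row alone the ratio of L over E was -1.08, past 2-fold, and that of L over P was -0.41, opposite in sign to the sum. Lower abundance in P than in E did not depend on the row, whereas the level in L did. Such double rows are common in these data, as 452 gene IDs had at least 2 rows at one position, 109 of them lncRNA genes.

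LOC102177005, the gene with the SCARNA15 match, is listed on scaffold NW_005100899.1 from 3153343 to 3157231, a span of 3889 nt. It had 15.5 FPKM in the E library, 9.46 FPKM in the P library and 16.8 FPKM in the L library. The early and late levels lay close together and the peak level stood below both. The log2 ratio was -0.72 for P over E, 0.11 for L over E and 0.83 for L over P. The last of these was a ratio of 1.78, larger than that of 75.1% of lncRNA genes and, among protein-coding genes, of 89.2%, where both levels reached 1 FPKM. The order L > E > P was the most common of the 6 possible orders in both classes, at 26.5% for lncRNA and 28.6% for protein-coding genes.

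LOC102180828, the gene with the SNORA62 match on the opposite strand, had 1.13 FPKM in the E library, 1.55 FPKM in the P library and 0.645 FPKM in the L library. It was the least abundant of the 4 genes and the only one highest in the P library. Its log2 ratio was 0.45 for P over E, -0.81 for L over E and -1.27 for L over P. Its position is scaffold NW_005100668.1, bases 6295425 to 6314994, which is exactly the position listed for STAT6, a transcription factor of interleukin-4 signalling. The 19570 nt are therefore the span listed for both genes and do not give the extent of the lncRNA. STAT6 had 9.91, 14.6 and 9.23 FPKM in the E, P and L libraries, so the lncRNA had 0.114, 0.106 and 0.0699 of its level. Whether the quantification used strand is not given in the sources used here, so reads of LOC102180828 and STAT6 cannot be told apart.

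The early and peak libraries were compared to see whether the 4 genes were lower or higher at peak lactation. LOC102178647, LOC102189880 and LOC102177005 were all lower in the P library, at 0.664, 0.627 and 0.609 of their level in the E library, and LOC102180828 was higher, at 1.37 times. None of the 4 differed at least 2-fold, while 38.5% of 436 lncRNA genes did, and 17.7% of 13020 genes that code for protein. The share was 26.2% for lncRNA genes that reached 1 FPKM in both. The median log2 ratio of the latter was -0.14, and that of protein-coding genes was -0.03, so the 3 lower genes lay below both medians. Among lncRNA genes that reached 1 FPKM in both, 30.2%, 27.3% and 25.8% had a lower ratio than LOC102178647, LOC102189880 and LOC102177005. Such ratios were thus not unusual for lncRNA genes. Of protein-coding genes with the same filter, 10.8% to 14.9% had a lower ratio than these 3 genes. This comparison uses the column labelled P, so it carries the doubt about which stage that column holds. With the columns labelled peak and late exchanged, 1 member differed at least 2-fold, LOC102178647 with a log2 ratio of -1.23. LOC102189880, LOC102177005 and LOC102180828 then had -0.51, 0.11 and -0.81.

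Between early and late lactation 1 of the 4 genes, LOC102178647, differed at least 2-fold. The background share was 23.4% for lncRNA, 8.71% for protein-coding genes and 8.39% for lncRNA genes that reached 1 FPKM in both. LOC102189880 and LOC102180828 were lower in the L library, at 0.704 and 0.569 of the early level, and LOC102177005 was at 1.08 times. This comparison uses the column labelled L, so it too carries the doubt about which stage its column holds. With the columns labelled peak and late exchanged, 0 members differed at least 2-fold, and LOC102178647 had a log2 ratio of -0.59.

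Between peak and late lactation 1 of the 4 genes, LOC102180828, differed at least 2-fold, against shares of 46.7% for lncRNA, 25.9% for protein-coding genes and 28.7% for lncRNA genes that reached 1 FPKM in both. It was below 1 FPKM in the L library, and with 1 added to both values its log2 ratio was -0.63, short of 2-fold. LOC102178647 was lower in the L library, at 0.642 of the peak level, and LOC102177005 was higher. Counts of 0 or 1 of 4 genes are too small to stand apart from these shares. Exchanging the columns labelled peak and late reverses every direction between them. The 3 comparisons share libraries and are not independent.

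Ribosomal protein genes give the scale of the ribosome supply on which snoRNAs act. Of 79 ribosomal protein genes listed, 64 had deposited values, and all 64 were lower in the P library than in the E library, with a median log2 ratio of -0.58. All 64 were also lower in the L library than in the E library, with a median of -0.36, and 56 were higher in L than in P, with a median of 0.23. RPS29, the most abundant by its mean, had 2629 FPKM in the E library, 1963 FPKM in the P library and 2168 FPKM in the L library. Of the 64 genes, 3 (RPS10, RPS27 and RPL23A) were at least 2-fold lower in P than in E. Of these 1, RPL23A, was also at least 2-fold lower in L than in either of the others, but it was below 1 FPKM in P and L. Ribosomal protein genes have many near-identical copies in mammalian genomes, so single values of this family are uncertain.

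The 4 genes lay at different places against this family. For P over E, LOC102178647 differed from the ribosomal protein median by -0.01, LOC102189880 by -0.09 and LOC102177005 by -0.13 on the log2 scale, with 30, 19 and 14 of the 64 genes having a lower ratio. LOC102180828 differed from it by 1.04, and all 64 ribosomal protein genes had a lower ratio. For L over E, LOC102189880 was at -0.15 from the median by its sum and at -0.73 by its larger row, where 1 of the 64 genes had a lower ratio. LOC102178647 lay 0.87 below the median, and RPL23A was the only ribosomal protein gene with a lower ratio. RPL23A had only 3.73, 0.725 and 0.181 FPKM in the E, P and L libraries, so its ratio rests on low values. LOC102177005 lay 0.47 above the median and above all 64 genes. The order E > L > P, that of LOC102189880 by its sum, was found in 56 of the 63 ribosomal protein genes that reached 1 FPKM throughout and in 23.3% of lncRNA genes. None of the 63 had the order of LOC102177005 or that of LOC102180828. With FPKM rescaled without the 20 highest loci, which held 61.3%, 63.8% and 58.5% of the FPKM sum in the E, P and L libraries, the median ratio of all annotated genes for P over E moved from -0.03 to 0.20. The ratios of LOC102178647, LOC102189880 and LOC102177005 were then -0.35, -0.43 and -0.47, and 62 of the 64 ribosomal protein genes were still lower in P. On that scale the ribosomal protein median of L over P was 0.01, so their higher level in L than in P depends on the scale.

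**Figure D2:**
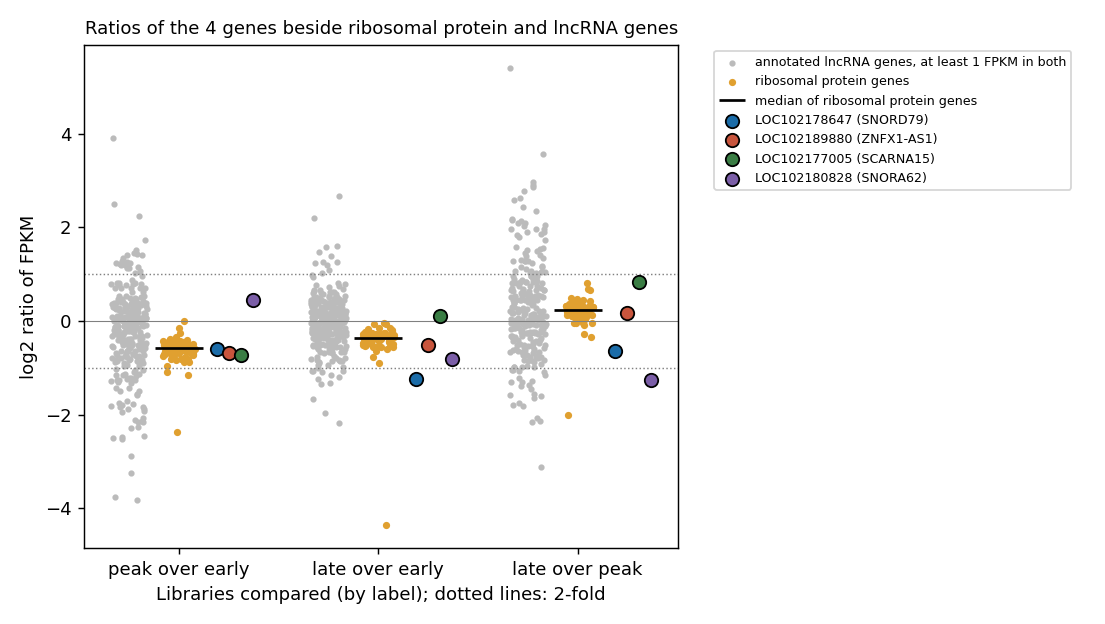
Log2 ratio of FPKM (vertical axis) for the 3 pairs of libraries (horizontal axis), with annotated lncRNA genes in grey, 64 ribosomal protein genes in orange with their median as a bar, and the 4 genes as large points. For peak over early, LOC102178647, LOC102189880 and LOC102177005 sit at -0.59, -0.67 and -0.72 beside the ribosomal protein median of -0.58, and LOC102180828 sits at 0.45, above all of them.

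In each library the level of the 4 genes can also be read as a share of the median FPKM of ribosomal protein genes. LOC102178647 was at 12.9% of that median in the E library, 11.5% in the P library and 6.36% in the L library. LOC102189880 was at 5.11%, 4.32% and 4.16% in the same libraries by its sum, and its larger row alone was at 2.79% in the L library. LOC102177005 was at 3.68%, 3.02% and 4.60%, and LOC102180828 at 0.268%, 0.494% and 0.177%. LOC102177005 was above LOC102189880 in the L library, and the reverse held in the other two, with no replicate spread to set these gaps against.

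**Figure D3:**
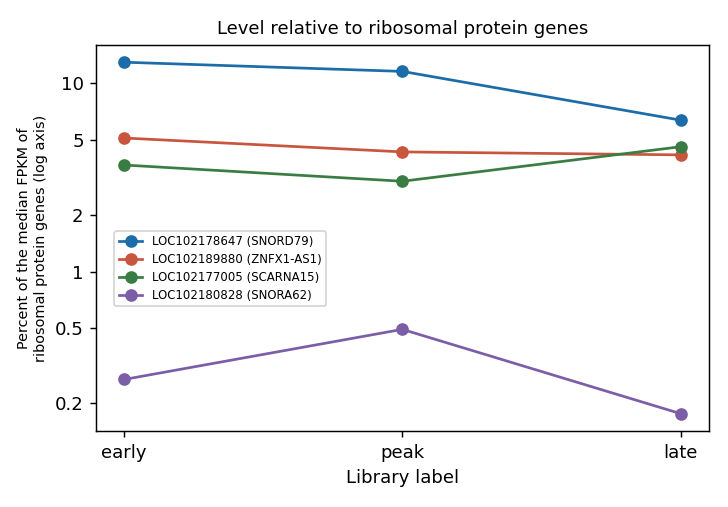
Level of each gene as a percent of the median FPKM of 64 ribosomal protein genes (vertical axis, log scale) in the 3 libraries (horizontal axis), 1 point per pooled library. LOC102178647 goes from 12.9% in early to 6.36% in late lactation, and LOC102189880, plotted as the sum of its rows, lies between 4.16% and 5.11% (its larger row alone would be at 2.79% in late lactation).

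Protein-coding snoRNA hosts outside the ribosome were mostly lower in the P than in the E library, as LOC102178647, LOC102189880 and LOC102177005 were. Of 30 symbols listed, 25 had values. In the P library 22 of these were lower than in the E library, 2 of them at least 2-fold, with a median log2 ratio of -0.47. TPT1, which encodes translationally controlled tumour protein, had 2221, 1369 and 1903 FPKM in the E, P and L libraries. RACK1, a scaffold protein of the small ribosomal subunit, had 815, 536 and 594 FPKM. The genes at least 2-fold lower in P were TAF1D, a subunit of the RNA polymerase I selectivity factor, with 39.1, 16.8 and 24.0 FPKM, and RABGGTB, a subunit of the enzyme that adds lipid anchors to Rab proteins, with 46.2, 21.4 and 36.1 FPKM. In the L library 23 of the 25 were lower than in E, with a median of -0.28 and none at least 2-fold, and none was as low as LOC102178647 in ratio or as high as LOC102177005. RPSA, the human host of SNORA62, had 710 FPKM in the E library, 403 FPKM in the P library and 567 FPKM in the L library. Its log2 ratio of P over E was -0.82, opposite in sign to the 0.45 of LOC102180828. Of 26 host symbols listed as lncRNA hosts in human, only TMEM107, itself a protein-coding gene, was matched by symbol, with 4.74, 5.13 and 3.43 FPKM, so the 4 genes could not be set beside other noncoding hosts.

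Genes for the proteins that bind snoRNAs had medians closer to 0 at peak than the hosts. The lists overlap, as NOP56 and DKC1 were counted both here and among the hosts. The 4 genes of the box C/D particle had a median log2 ratio of -0.19 for P over E and -0.38 for L over E, and none differed at least 2-fold in any pair of libraries. FBL, the methyltransferase of that particle, had 40.1, 36.8 and 42.8 FPKM in the E, P and L libraries, and NOP56, one of its core proteins, had 31.7, 26.6 and 23.6 FPKM. The 4 genes of the box H/ACA particle had medians of -0.05 and 0.01. NOP10 had 19.2, 20.1 and 20.1 FPKM, and NHP2 had 30.9, 18.1 and 36.6 FPKM, at least 2-fold higher in L than in P. Among 15 genes for particle assembly and the Cajal body none differed at least 2-fold, and HSP90AA1 and HSP90AB1, the chaperones with the highest values, had 164 and 156 FPKM in the E library, 188 and 146 FPKM in the P library, and 134 and 108 FPKM in the L library. LOC102178647 was thus lower in L than in E by more than any gene of these 3 lists.

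Genes that act on the stability or translation of TOP transcripts were also listed. None of 15 genes for nonsense-mediated decay differed at least 2-fold, with medians of 0.00 for P over E and -0.11 for L over E. UPF1, the central helicase of this pathway, had 19.4, 19.8 and 18.1 FPKM in the E, P and L libraries, EIF4A3 of the exon junction complex had 27.5, 26.1 and 25.5 FPKM, and the exonuclease XRN1 had 22.9, 25.4 and 27.1 FPKM. Of 10 genes for TOP mRNA control with values, 2 were at least 2-fold higher in L than in P. These were LARP1, which binds TOP mRNAs, with 37.1, 19.9 and 41.0 FPKM, and EIF4EBP2, a repressor of cap-dependent translation, with 73.6, 38.4 and 93.5 FPKM. Both were lowest in the P library, as LOC102177005 and, by its sum, LOC102189880 were. The list as a whole went both ways, with 5 genes lower and 5 higher in P than in E. Its median log2 ratio was -0.01 for P over E and 0.14 for L over E.

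**Figure D4:**
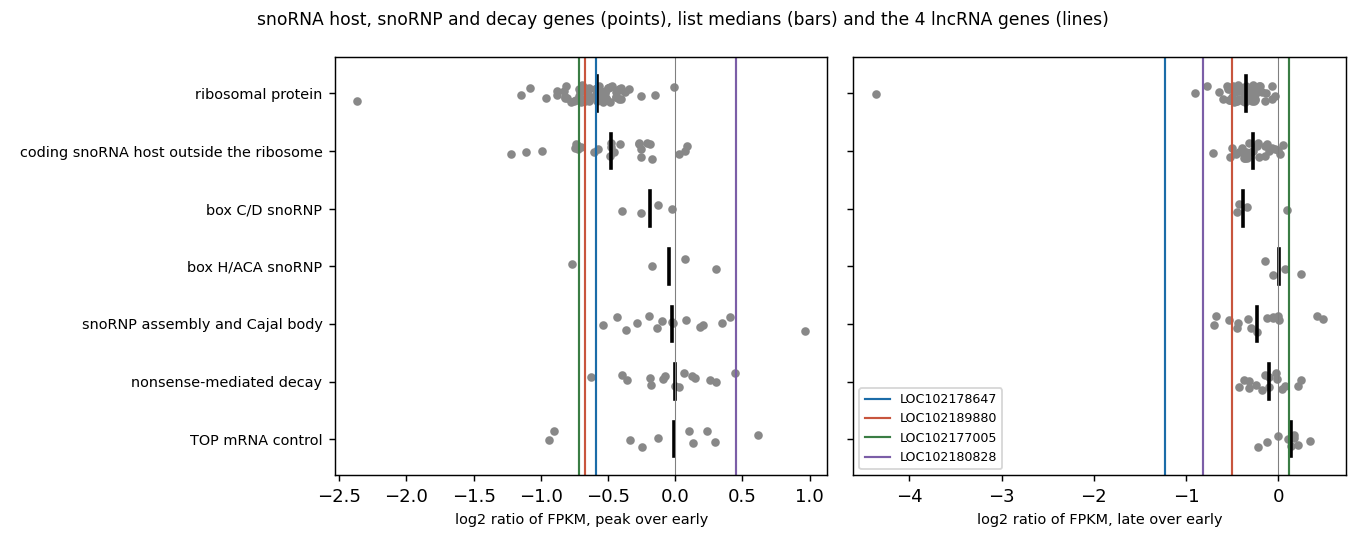
Log2 ratio of FPKM (horizontal axes) of peak over early lactation (left) and late over early lactation (right) for the genes of each list (points, with vertical jitter only for visibility), with the list median as a black bar and the 4 lncRNA genes as coloured lines. On the left 3 lines fall between -0.72 and -0.59, beside the medians of ribosomal protein genes (-0.58) and coding snoRNA hosts (-0.47), and on the right LOC102178647 at -1.23 lies left of all coding hosts.

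Neighbouring protein-coding genes on the same scaffold were examined to see whether each lncRNA gene moved with its neighbourhood. Of the 7 neighbours reported, 2 differed at least 2-fold between E and P, 0 between E and L and 4 between P and L, against 17.7%, 8.71% and 25.9% of all such genes. CPEB1 and FSD2, at or below 1.22 FPKM throughout, carry part of these counts, which were 1, 0 and 2 with 0.1 FPKM added and 1, 0 and 1 with 1 FPKM added. Genes of one neighbourhood are not independent of each other. ZBTB37, a zinc finger gene 783 nt from LOC102178647, had 3.80, 5.01 and 2.44 FPKM in the E, P and L libraries. It was higher in P than in E while LOC102178647 was lower, and LOC102178647 stood at 14.3 times the level of ZBTB37 in the E library and 7.22 times in the P library. Both were lower in L than in E.

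ZNFX1, a helicase-like antiviral RNA sensor 2321 nt from LOC102189880, had 14.5 FPKM in the E library, 15.5 FPKM in the P library and 12.2 FPKM in the L library. The lncRNA gene was above it in the E library, at 1.49 times, below it in the P library, at 0.873 times, and at 1.24 times in the L library by its sum. FSD2, 674 nt from LOC102177005, had 0.496, 1.01 and 0.488 FPKM, and CPEB1, a translational regulator 76267 nt away, had 0.616, 1.22 and 0.590 FPKM. Both were highest in the P library, where LOC102177005 was lowest. LOC102177005 was therefore 31.3 times as abundant as FSD2 in the E library, 9.40 times in the P library and 34.4 times in the L library.

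At peak LOC102180828 had the same direction as the 3 genes around it. Its log2 ratio of P over E was 0.45, beside 0.56 for STAT6 at the same position, 0.68 for NAB2, a corepressor of early growth response factors 532 nt away, and 1.03 for LRP1, an endocytic receptor 17392 nt away. LRP1 had 33.1, 67.3 and 29.1 FPKM and NAB2 had 7.69, 12.3 and 7.34 FPKM in the E, P and L libraries. For L over E the neighbours had ratios between -0.19 and -0.07, whereas the lncRNA gene had -0.81. Leukocyte markers were also highest in the P library, with 22.1, 47.5 and 12.5 FPKM summed over the 4 of 5 with values, and CD3E, a T cell marker, was listed at 0 in the E and P libraries and at 1.43 FPKM in the L library. PTPRC, the pan-leukocyte marker CD45, had 17.6, 39.9 and 8.08 FPKM, the same order as LOC102180828. That order was found in 27.0% of protein-coding and 19.3% of lncRNA genes. The part of leukocytes in the level of LOC102180828 was not tested.

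**Figure D5:**
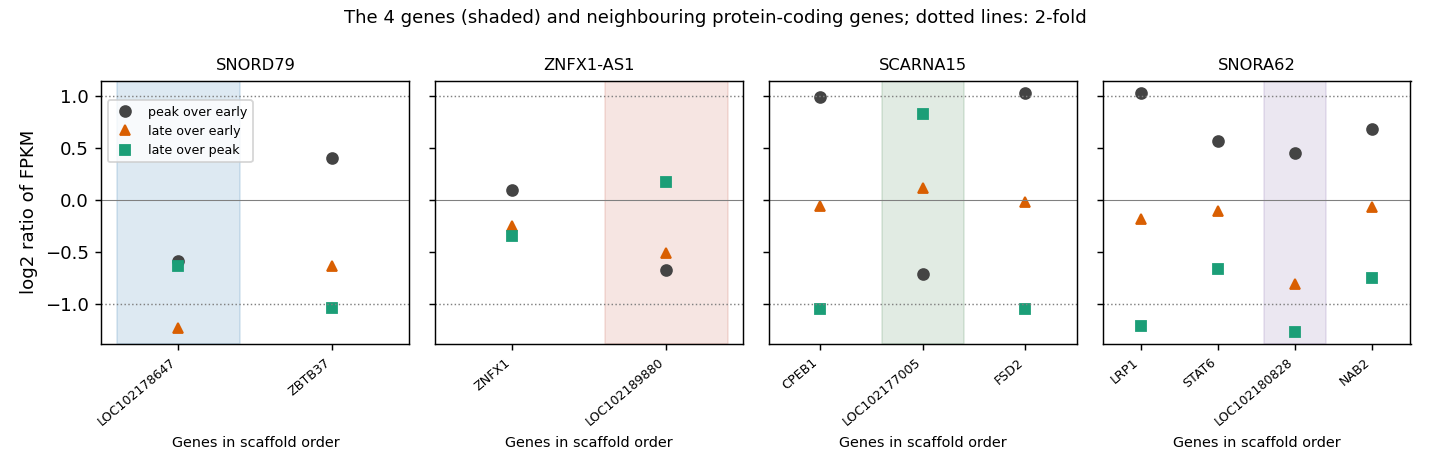
Log2 ratio of FPKM (vertical axis) of the 4 genes (shaded) and 7 neighbouring protein-coding genes in scaffold order (horizontal axes, not to distance), with 1 symbol per pair of libraries. STAT6 is listed at the same position as LOC102180828. Around LOC102177005 the ratio of peak over early is -0.72 for the lncRNA gene and about 1 for CPEB1 (0.99) and FSD2 (1.02).

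The genes with the most similar pattern were sought by the distance between their log2 ratios of P over E and L over E, among genes with at least 1 FPKM in all 3 libraries. With 3 libraries such likeness is a weak description. Near LOC102178647 only 3 of 11659 genes lay within 0.1, the transcribed pseudogene LOC102178404, the adhesion receptor gene FLRT3 and LOC102168424. Within the same distance lay 35 genes for LOC102189880 by its sum, led by TMEM154, LOC102181609 and TCEANC, and 143 genes for LOC102177005, led by ATP6V0D1, GOLGA1 and COQ2. For LOC102180828 there were 23, led by FGFR2, CEP135 and ASRGL1. With LOC102189880 taken by its sum, the pattern of LOC102178647 was thus the least shared of the 4 and that of LOC102177005 the most. Genes near the larger row of LOC102189880 were not counted.

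The libraries differed in other ways that bear on these levels. Of 50041 loci, 48362 to 49395 were above 0 in a library. The reads behind a locus are not known from FPKM, so the depth of single values is unknown and no interval is given. Of the 8 secretory epithelial markers with values, 6 were lower in P than in E, 4 of them at least 2-fold, and the sums were 122098, 32164 and 68324 FPKM in the E, P and L libraries. CSN3, encoding kappa-casein, had 25446, 3989 and 27391 FPKM, and ELF5, a transcription factor of secretory epithelium, had 879, 244 and 875 FPKM. The keratins KRT8 and KRT18 were highest in P, with 126, 196 and 154 FPKM and 21.0, 32.0 and 19.5 FPKM, and LALBA was listed at 0 in the L library against 70053 FPKM in the E library. The lower sum in L than in E rests on LALBA. Of the 7 markers above 0 in both E and L, 4 were lower and 3 higher in L, with a median log2 ratio of -0.01. The 5 fibroblast markers had median log2 ratios of -0.76 for P over E, -0.31 for L over E and 0.35 for L over P, beside -0.58, -0.36 and 0.23 for ribosomal protein genes, with DCN alone higher in P than in E. The 2 adipocyte markers with values were lower in L than in E, as LOC102178647 was, with 15.1, 4.10 and 5.69 FPKM for ADIPOQ and 1.28, 0.836 and 0.468 FPKM for PLIN1. The 4 endothelial markers had medians of -0.24, 0.35 and 0.59, the 5 basal and myoepithelial markers of -0.20, -0.14 and -0.07, and the 4 markers of proliferating cells with values of 0.19, -0.44 and -0.81. In pooled tissue, fewer cells of a type and less RNA per cell cannot be told apart, and the part of cell composition in the levels of the 4 genes was not tested.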

How the data were processed

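Mammary gland RNA of 5 goats was pooled per stage into 3 libraries. Per the labels and the study's methods, the authors trimmed reads with Trimmomatic, mapped them with TopHat2 2.0.9, assembled transcripts with Cufflinks 2.1.1 and Cuffmerge, and computed abundance with Cuffdiff. The authors deposited FPKM for 50041 loci, 1 column per library. Between 95.7% and 99.3% of the values written with 7 digits end in 5, as means of 2 rounded values would, and what was averaged is not given in the sources used here. The methods name a goat genome release for mapping and the ARS1 assembly as the reference for transcripts, and to which assembly the scaffold positions belong is not given with the values. Gene IDs were matched to the ARS1.2 gene table for names and classes only, and 14403 of 15274 loci with a single ID matched. The library totals are FPKM sums and not depths.

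Rows of one gene ID were summed. Ratios were taken from FPKM as deposited, with values under 0.001 set to 0.001, and 2-fold differences were counted with no test. Neighbours were the nearest protein-coding genes on the scaffold, and 2 of them and 1 ribosomal protein gene that the rule names are not reported here. Genes named were the 4 members, their neighbours, the 2 most abundant genes of each pathway list and those at least 2-fold apart where 5 or fewer, and the 3 genes of nearest pattern per member. UPF1, RPSA and all cell type markers were named after their values were seen. The members and lists were chosen with earlier results of these data known. Where 1 listed symbol had several gene IDs, the most abundant was used. Lists were not extended, and genes without a matched ID were left out. Fold counting was tested on simulated data. Python 3.11.15, numpy 2.4.6, pandas 2.3.3 and matplotlib 3.10.9 were used.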

Additional observations from a re-analysis of the deposited data

How the results depend on the processing

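No paired analysis was possible because there was 1 pooled library at every stage, and for the same reason no replicate could be left out. Pseudocounts, folds, a filter at 1 FPKM, the highest row of each gene, centring, rescaling and an exchange of the columns labelled peak and late were tried. Adding 0.1 FPKM left 1 neighbour at least 2-fold apart between early and peak lactation and 2 between peak and late. Adding 1 FPKM left, for peak and late, 0 members, 0 ribosomal protein genes, 1 neighbour and 0 snoRNA host and particle genes, left 1 neighbour for early and peak, and gave ribosomal protein medians of -0.35 for late over early and 0.22 for late over peak. With at least 1 FPKM in both libraries there were 0 members, 0 ribosomal protein genes and 2 neighbours for peak and late, 0 ribosomal protein genes for early and late with a median of -0.35, and 1 neighbour for early and peak. At 1.5-fold the members numbered 3 for early and peak, 2 for early and late and 3 for peak and late, the ribosomal protein genes 31, 5 and 4, and the host and particle genes 11, 3 and 7, with 4 neighbours for early and peak and 1 for early and late. At 4-fold there were 0 members for early and late and for peak and late, 1 ribosomal protein gene, 0 neighbours and 0 host and particle genes for early and peak, and 0 neighbours and 0 host and particle genes for peak and late. Both the folds and the filter change counts by construction. With the highest row of each gene, 2 members (LOC102178647 and LOC102189880) and 2 ribosomal protein genes differed between early and late, and the ribosomal protein median of late over peak was 0.22.

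Centring on all annotated genes gave ribosomal protein medians of -0.55 for peak over early, -0.34 for late over early and 0.19 for late over peak. Centring on ribosomal protein genes gave 1 member for early and peak (LOC102180828, log2 1.04) and 0 for early and late, where LOC102178647 had -0.87, with 5 neighbours and 1 host or particle gene for early and peak and 2 for peak and late. Rescaling without the 20 highest loci gave 1 ribosomal protein gene and 1 host or particle gene for early and peak, 2 host or particle genes for peak and late, and medians of -0.34, -0.33 and 0.012. It also gave LOC102189880 a ratio of late over peak of -0.05, against 0.17.

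Exchanging the columns labelled peak and late gave, for early and peak, 1 member, 1 ribosomal protein gene, 0 neighbours and 0 host or particle genes, and for early and late 0 members, 3 ribosomal protein genes, 2 neighbours and 2 host or particle genes. The ribosomal protein medians were -0.36, -0.58 and, reversed, -0.23, and LOC102180828 had 1.27 for late over peak, reversed. These values follow from the exchange by construction. LOC102178647 and LOC102189880 were lower than early lactation in both other libraries, which an exchange of those libraries cannot change. Among the counts that stayed within 1.5 times, ribosomal protein genes for early and peak numbered 2 with the filter, and neighbours numbered 6 for peak and late at 1.5-fold and 3 for early and peak under all-gene centring and rescaling. Rounded to 2 decimals, 79 values of single members changed and 38 did not. The ratio of LOC102180828 for late over peak, 1 value, was counted apart as reversed. Signs also turned among the 79. For late over peak LOC102189880 went from 0.17 to -0.41 by its highest row, -0.06 centred on ribosomal protein genes and -0.05 rescaled. Under the exchange LOC102178647 had 0.64, LOC102189880 -0.17 and LOC102177005 -0.83 for late over peak, against -0.64, 0.17 and 0.83. LOC102177005 had 0.11 for peak over early, against -0.72, and -0.72 for late over early, against 0.11. LOC102180828 had -0.81 for peak over early, against 0.45, and 0.45 for late over early, against -0.81. The cause of the changes from row choice and rescaling was not tested.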
